A study of Mus musculus with 12 samples.

Results

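Imprinted genes of fetal growth, 10 of the 54532 genes in the deposited table, were followed in mouse limb buds at E12.5: H19, Igf2, Igf2r, Dlk1, Meg3, Peg3, Cdkn1c, Grb10, Mest and Plagl1. They were taken by gene name from the table of expression values, and all 10 were found and passed the filter on low values in each comparison. An imprinted gene is transcribed mainly from the maternal or mainly from the paternal chromosome. Growth-promoting members of this group, such as Igf2, are typically expressed from the paternal copy, and growth-restraining members, such as Igf2r, Cdkn1c and H19, from the maternal copy in the mouse embryo. Several sit in pairs within one imprinted domain, as Igf2 and H19 do on chromosome 7 and Dlk1 and Meg3 on chromosome 12. The values are sums over both alleles, so parental origin was not measured.

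The study compared limb buds whose cells carry the genotype Mettl14 flox/flox (called cKO) with control limb buds of the genotype Mettl14 wt/flox (called cHet), so that the controls also carry a floxed allele. The METTL14 protein pairs with METTL3 to place N6-methyladenosine marks on RNA. The labels name neither the Cre line nor the exons removed. Cytoplasmic extract of each lysate was sequenced as input, and polysomes, the messenger RNAs loaded with several ribosomes, were collected from a sucrose gradient of it. Each of the 4 groups (cHet input, cKO input, cHet polysome, cKO polysome) held 3 samples that the labels call biological replicates, giving 12 libraries from 6 lysates.

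Library depth ranged from 10349912 to 30068823 reads assigned to genes. Values are FPKM, read counts scaled by gene length and library size, so they can be compared between genes of different length. Mettl14 itself stood at 4.05 ± 0.0313 FPKM (mean ± SD, n = 3) in cHet input and at 2.60, 3.32 and 1.26 in cKO input replicates 1 to 3. On polysomes the genotypes overlapped (2.83 to 3.07 in cHet, 2.73 to 3.29 in cKO). These values cover the whole gene, so they do not check the deletion itself, and cKO and cHet are used below as the labels give them. In a principal component analysis cKO input replicate 3 and cKO polysome replicate 1 lay far from the other replicates of their groups and are called the libraries that stand apart. On the first component cKO polysome replicate 1 was at 3.97, against 35.5 and 45.0 for the other cKO polysome libraries. The inputs were at -41.5 to -36.2, so it lay between the other polysome libraries and the inputs. The cause was not tested. Results that rest on either of the libraries that stand apart are given with and without it, except for correlations between genes. All 12 of the limb mesenchyme markers examined (Prrx1, Msx1, Tbx5 and others) were above 0 in every library. So were all markers of the other cell types examined below, so values above 0 do not tell the tissue apart.

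H19 was by far the most abundant member in the cytoplasm. It is a long noncoding RNA, gene ENSMUSG00000000031 on chromosome 7 (142575529 to 142578143, minus strand, mm10), known as the maternally expressed partner of Igf2 and as the host of the microRNA miR-675. Its level in cHet input was 3650, 3714 and 3430 FPKM, and in cKO input 2731, 2843 and 3758 FPKM. It ranked 1 among the genes annotated as noncoding transcripts of its class (lincRNA, antisense and similar types) in each of the 4 groups. It took 0.665% to 0.946% of all gene-assigned reads in the 6 input libraries but 0.0678% to 0.0869% in the 6 polysome libraries.

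Among the coding members in cHet input, Cdkn1c, an inhibitor of cyclin-dependent kinases, was highest at 417 ± 30.0 FPKM (SD, n = 3) and ranked 85 among 17418 detected protein-coding genes. Mest, a paternally expressed member of the hydrolase fold family, followed at 336 ± 23.1 FPKM. Igf2, the fetal growth factor, stood at 144 ± 5.69 FPKM, and Grb10, an adaptor that restrains insulin and IGF receptor signalling, at 131 ± 7.50 FPKM. Dlk1, a transmembrane protein related to Notch ligands, was at 91.7 ± 10.4 FPKM. Peg3 and Plagl1, both zinc finger proteins, stood at 33.5 ± 2.10 and 32.1 ± 2.26 FPKM, and their replicate ranges overlapped. Igf2r, the receptor that carries IGF2 to lysosomes for degradation, was at 21.1 ± 1.48 FPKM. Meg3, the maternally expressed noncoding RNA of the Dlk1 domain, was lowest at 3.45 ± 0.438 FPKM. Apart from Peg3 and Plagl1, no neighbouring members in this order overlapped in their replicates. On cHet polysomes the order was different: Mest was highest at 526 ± 10.8 FPKM, ahead of H19 at 325 ± 27.6, Cdkn1c at 243 ± 46.3, Dlk1 at 90.3 ± 5.95, Grb10 at 56.2 ± 7.56 and Igf2 at 37.3 ± 6.40 FPKM.

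**Figure D1:**
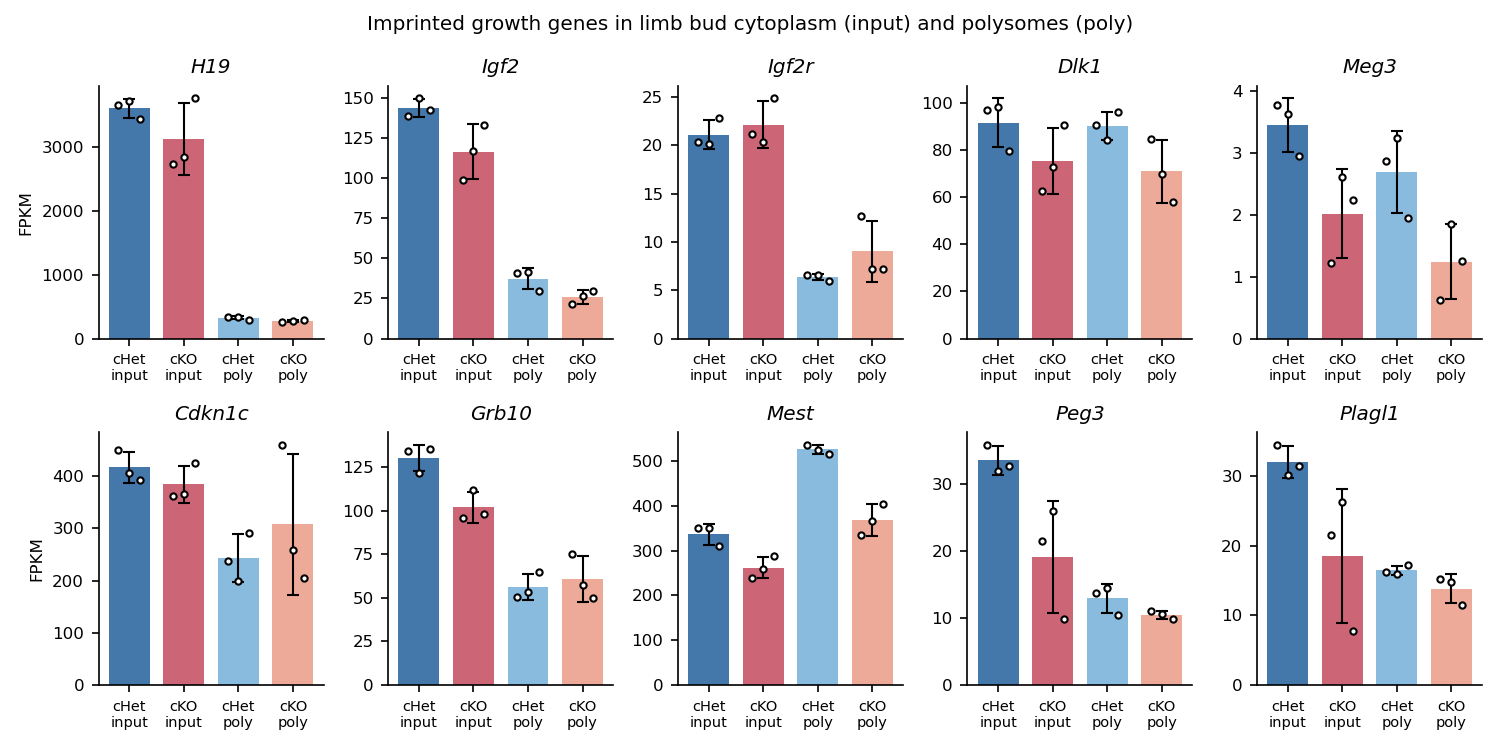
FPKM (vertical axes, each starting at 0) of the 10 imprinted growth genes in the 4 groups. Bars are group means, error bars the SD of 3 replicates and circles the replicates in order 1 to 3. H19 falls from between 2731 and 3758 FPKM in input to between 264 and 342 on polysomes, while Mest is higher on polysomes than in input.

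Polysome loading was described by the difference between polysome and input RNA of the same genotype. In cHet limb buds 8 of the 10 members differed (limma on log2(FPKM + 0.1), Benjamini-Hochberg adjusted p under 0.05 over 13610 genes): 1 was higher on polysomes and 7 were lower. Of all genes tested, 53.2% were called in this comparison, 27.3% as higher and 25.9% as lower. The median log2 difference was -1.09 over the members and 0.02 over all genes tested. Because each library is scaled to its own total, a difference here is relative to the other RNAs of the fraction and not an absolute amount. Scaling to the summed FPKM of protein-coding genes moved the median of all genes in cHet from 0.02 to -0.20 and left all 8 calls in place.

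H19 had the lowest ratio of the members. On cHet polysomes it measured 342, 340 and 293 FPKM, against the 3430 to 3714 FPKM of the inputs. In cKO it measured 264, 275 and 289 FPKM on polysomes. Input exceeded polysome between 10.3-fold and 12.99-fold in all 6 lysates, and no polysome library came near an input library. The log2 difference was -3.47 (SE 0.14, limma adjusted p = 1.01e-07) in cHet and -3.48 (SE 0.14, limma adjusted p = 9.81e-08) in cKO. In cHet, 0.191% of the 13610 genes tested had a lower value than H19.

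H19 RNA is spliced and holds open reading frames, which are shown here because polysome association of a noncoding RNA raises the question of what a ribosome could read. In GENCODE M21, whose coordinates for all 10 members equal those in the deposited table, the transcript H19-202 has 2286 bases in 5 exons. Its longest ATG-to-stop frame has 147 codons, begins at base 1457 and lies behind 20 other ATG triplets. The Meg3 transcript Meg3-209 has a longest frame of 186 codons behind 10 other ATG triplets. Over 11866 coding genes with a usable reference transcript, the median number of ATG triplets before the annotated start was 1. The 18 bases around these start codons follow, with the ATG in capitals, beside the annotated starts of the coding members Igf2 (for the transcripts Igf2-205 and Igf2-204), Mest and Dlk1.
H19: ttgaacaccATGggctgg
Meg3: gcagtggacATGaacctg
Igf2-205: agcagggagATGggcggc
Igf2-204: gtggtaccaATGgggatc
Mest: tcagaggatATGtatgtg
Dlk1: cgccccgagATGatcgcg
These letters describe the annotated transcripts, and no ribosome footprints were measured here. Other members vary in what precedes the start: Mest-202 has 340 bases and 5 ATG triplets before it, Dlk1-201 has 519 bases and 3, and the 5 complete Igf2 transcripts have between 47 and 1099 bases and 0 such triplets. Of the 11866 coding genes, 53.2% had at least 1 ATG triplet before the start.

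The microRNA miR-675 lies within H19 (chromosome 7, minus strand, 142577112 to 142577133 for the 5p arm and 142577078 to 142577099 for the 3p arm, RefSeq sequences, GRCm38.p6). Its mature arms are shown because H19 is its precursor, with the seed (bases 2 to 8) in capitals.
mmu-miR-675-5p: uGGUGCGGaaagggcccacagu
mmu-miR-675-3p: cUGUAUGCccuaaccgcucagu
The entry for the hairpin gene Mir675 was at 0 in all 12 libraries, as were Mir335, within Mest, and Mir770, within Meg3, while Mir483, within Igf2, had 0 to 5 reads. The values of H19 therefore hold no separate readout of the microRNA.

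Igf2 (ENSMUSG00000048583, chr7:142650766-142666816, minus strand) was the coding member with the lowest polysome-to-input ratio in cHet. It measured 139, 150 and 143 FPKM in cHet input and 40.7, 41.3 and 29.9 FPKM on cHet polysomes. In cKO the inputs were 98.9, 117 and 133 FPKM and the polysomes 21.2, 26.7 and 29.6 FPKM. Fractions did not overlap in either genotype (all polysome below all input values for 37.2% of all genes tested in cHet and 16.5% in cKO), and input exceeded polysome between 3.41-fold and 4.77-fold in the 6 lysates. The log2 difference was -1.96 (SE 0.17, limma adjusted p = 5.20e-05) in cHet and -2.17 (SE 0.17, limma adjusted p = 2.53e-05) in cKO. Igf2os, annotated antisense over Igf2, was higher on polysomes in cHet (log2 difference 0.73, limma adjusted p = 0.00818). At 5.04 to 10.9 FPKM it was below Igf2 in all 12 libraries, and the sources used here do not say whether counting used strand. Gm49394, annotated as protein-coding (chr7:142650769-142669942), overlaps Igf2 on the same strand and had 0 to 4 reads per library. How reads shared by Gm49394 and Igf2 were counted was not examined, so the FPKM of Igf2 and its ratios to other genes carry that limit.

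The receptor and adaptor that act on IGF signalling were also lower on polysomes. Igf2r (ENSMUSG00000023830, chr17:12682406-12769664, minus strand) measured 20.4, 20.2 and 22.8 FPKM in cHet input and 6.59, 6.53 and 5.98 FPKM on cHet polysomes, a log2 difference of -1.71 (SE 0.20, limma adjusted p = 0.000108). In cKO its input was 21.2, 20.3 and 24.9 FPKM and its polysome level 12.7, 7.21 and 7.24 FPKM, a log2 difference of -1.33 (limma adjusted p = 0.000902). The high value of 12.7 FPKM came from cKO polysome replicate 1, and without that library the difference was -1.60 (limma adjusted p = 4.49e-05). Grb10 went from 134, 122 and 136 FPKM in cHet input to 50.6, 53.3 and 64.8 FPKM on polysomes, a log2 difference of -1.22 (SE 0.16, limma adjusted p = 0.000194). In cKO its log2 difference was -0.76 (limma adjusted p = 0.00516).

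Airn, the noncoding RNA antisense to Igf2r that silences its paternal copy, had the opposite pattern to Igf2r. It measured 4.16, 4.24 and 3.56 FPKM in cHet input and 7.07, 8.28 and 5.66 FPKM on cHet polysomes, with a log2 difference of 0.78 (SE 0.19, limma adjusted p = 0.00528). Every cHet polysome value lay above every cHet input value, as for 38.1% of all genes tested. Reads from Airn and from the overlapping part of Igf2r cannot be told apart if counting ignored strand.

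Mest (ENSMUSG00000051855, chr6:30723547-30748465, plus strand) was the 1 member higher on polysomes. It measured 349, 350 and 310 FPKM in cHet input and 537, 525 and 515 FPKM on cHet polysomes. In cKO the inputs were 240, 259 and 287 FPKM and the polysomes 334, 365 and 404 FPKM. The polysome value exceeded the input value between 1.39-fold and 1.66-fold in all 6 lysates. The log2 difference was 0.65 (SE 0.12, limma adjusted p = 0.00125) in cHet and 0.49 (SE 0.12, limma adjusted p = 0.0116) in cKO. The cKO call was lost when genes were not filtered on low values (limma adjusted p = 0.0545).

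Dlk1 and Meg3, the coding and noncoding partners on chromosome 12 (chr12:109452823-109463336 and chr12:109541001-109571726, both plus strand), were not called. Dlk1 measured 96.9, 98.5 and 79.7 FPKM in cHet input and 90.7, 84.2 and 96.1 FPKM on cHet polysomes, and the ranges overlapped. Its log2 difference was -0.02, with a 95% interval of -0.40 to 0.36. Meg3 measured 3.77, 3.62 and 2.95 FPKM in cHet input and 2.87, 3.25 and 1.95 FPKM on cHet polysomes. Its log2 difference of -0.37 had a 95% interval of -1.13 to 0.39, which lies above the whole interval of H19 (-3.77 to -3.17), although both are annotated as lincRNA. Meg3 rested on 257 to 2135 reads per library.

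Cdkn1c, Peg3 and Plagl1 were lower on cHet polysomes and variable in cKO. Cdkn1c measured 451, 406 and 393 FPKM in cHet input and 237, 200 and 292 FPKM on cHet polysomes, a log2 difference of -0.79 (SE 0.25, limma adjusted p = 0.0176). Peg3 measured 35.9, 31.9 and 32.7 FPKM in cHet input and 13.8, 14.5 and 10.5 FPKM on polysomes, a log2 difference of -1.38 (SE 0.28, limma adjusted p = 0.00165). Plagl1 measured 34.6, 30.2 and 31.5 FPKM in cHet input and 16.3, 15.9 and 17.2 FPKM on polysomes, a log2 difference of -0.95 (SE 0.34, limma adjusted p = 0.0309). For each of these genes all cHet polysome values lay below all cHet input values, as for 37.2% of all genes tested. The calls of Cdkn1c and Plagl1 were lost when genes were not filtered on low values (limma adjusted p = 0.0578 and 0.0782). Plagl1 also lost its call when any 1 of the 6 cHet libraries was left out, and Cdkn1c when cHet input replicate 1 or cHet polysome replicate 2 was.

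In cKO limb buds 5 of the 10 members were called between polysome and input (limma, as above), 1 higher (Mest) and 4 lower (H19, Igf2, Igf2r and Grb10), where 32.5% of all genes tested were called (16.9% higher and 15.6% lower). The 5 members called in cKO were all among the 8 called in cHet. Without both libraries that stand apart, 8 members were called in cKO, with Peg3 at -1.21, Plagl1 at -0.86 and Cdkn1c at -0.66 on the log2 scale, and the number of genes called over the whole table rose from 4424 to 8012. Leaving out cKO input replicate 3 alone added Peg3 and Plagl1, leaving out cKO polysome replicate 1 added Cdkn1c, and leaving out cKO input replicate 1 added Meg3. With the lysate as a block, 7 members were called, Meg3 (-0.71, limma adjusted p = 0.0150) and Peg3 (-0.75, limma adjusted p = 0.0447) being added. Without the block, the difference of Meg3 in cKO was -0.32 without cKO polysome replicate 1 (limma adjusted p = 0.433) and -0.22 without both libraries that stand apart. The difference between the genotypes in polysome loading, tested as an interaction in limma, was called for 0 of 13610 genes (638, or 4.69%, at an unadjusted p under 0.05), and voom on the recovered reads also called 0. For the members the limma adjusted p of the interaction was at least 0.790. H19's interaction was -0.01 on the log2 scale, with a 95% interval of -0.44 to 0.42.

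**Figure D2:**
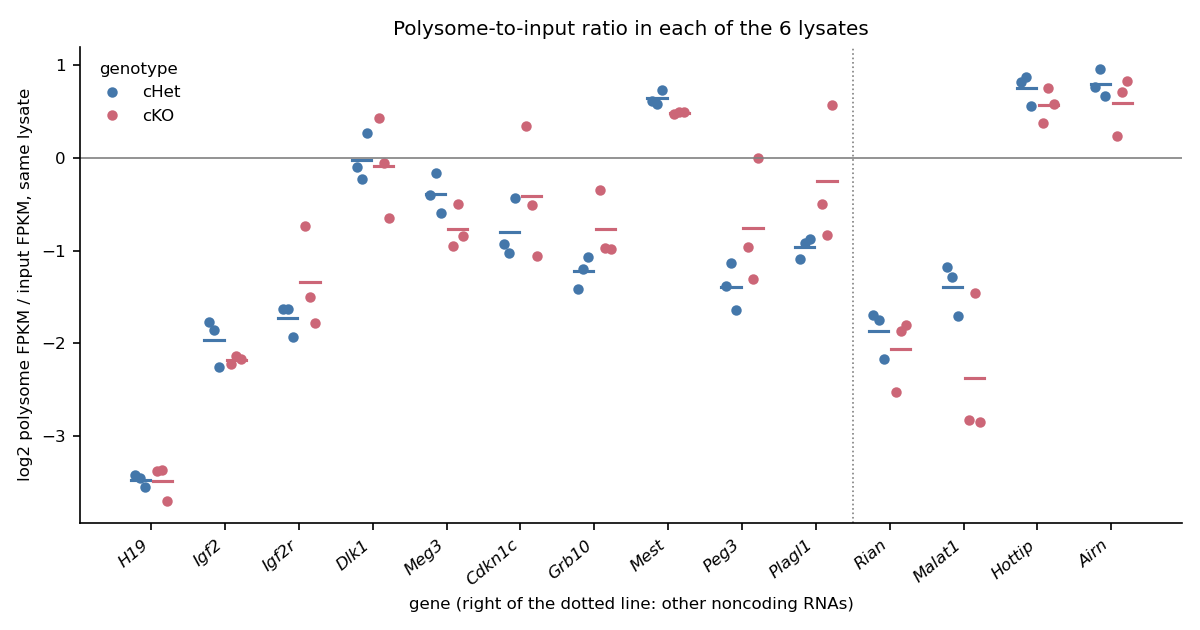
Log2 ratio of polysome to input FPKM (vertical axis) for the 10 members and 4 other noncoding RNAs (horizontal axis). Each point is 1 of 6 lysates, horizontal bars are means over the 3 lysates of a genotype, and 0 means equal FPKM in both fractions. H19 lies between -3.70 and -3.37 in all 6 lysates, and Mest lies above 0 in all 6.

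Ratios between genes of 1 library cancel the scaling of that library. H19 outnumbered Igf2 between 24.0-fold and 26.3-fold in cHet input and between 8.23-fold and 9.81-fold on cHet polysomes, in FPKM. In cKO the same ratio ran from 24.3 to 28.2 in input and from 9.79 to 12.4 on polysomes. The log2 ratio of Igf2 to H19 was 1.41 ± 0.21 (SD, n = 6 lysates) higher on polysomes and higher in 6 of 6 lysates (exact two-sided sign-flip permutation p = 0.03125, the smallest that 6 pairs allow, and 0.0469 adjusted over 3 ratios). This had to be so, because the lowest log2 polysome-to-input ratio of Igf2 (-2.25) lay above the highest of H19 (-3.37). The permutation p adds nothing to those values. The ratio of Igf2 to its clearance receptor Igf2r moved the other way, by -0.53 ± 0.49 on the log2 scale, and was lower in 6 of 6 lysates (exact permutation p = 0.03125, adjusted 0.0469). It moved most in cKO lysate 1, whose polysome library stands apart, and was -0.34 without that lysate. Dlk1 to Meg3 differed by 0.52 ± 0.52 and was higher on polysomes in 5 of 6 lysates (exact permutation p = 0.0625, adjusted 0.0625).

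**Figure D3:**
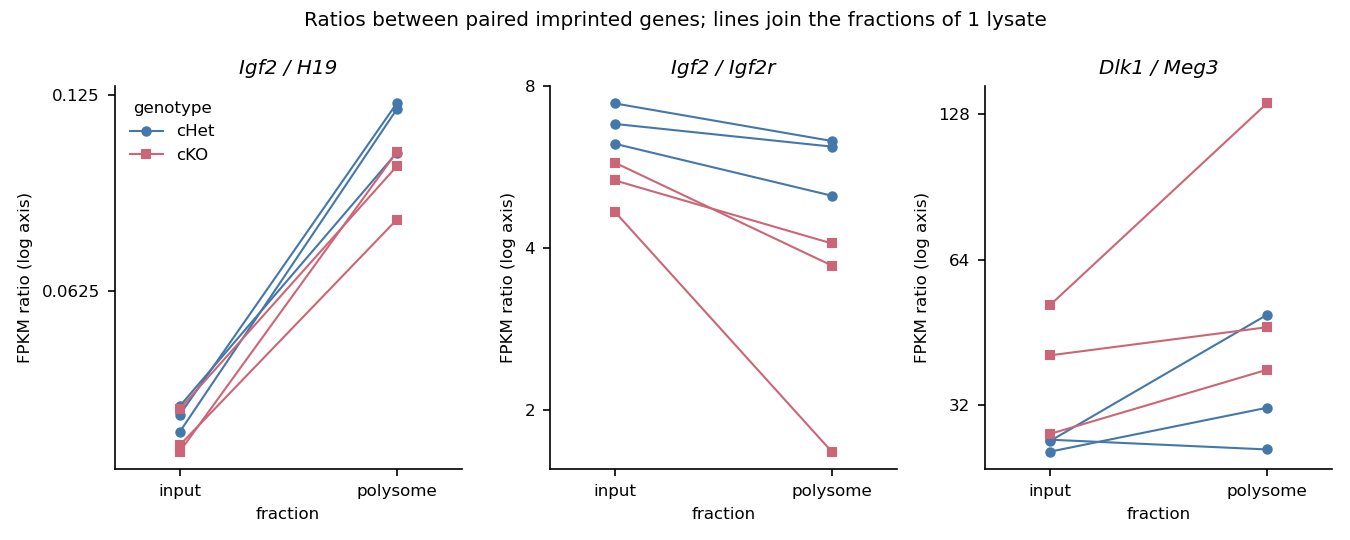
FPKM ratios of Igf2 to H19, Igf2 to Igf2r and Dlk1 to Meg3 (vertical axes, log scale) in input and polysome; each line joins the fractions of 1 of 6 lysates, circles for cHet and squares for cKO. Igf2 per H19 rises in all 6 lysates, and Igf2 per Igf2r falls in all 6, from 4.67 to 1.67 in cKO lysate 1.

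Between genotypes no member was called in either fraction. In input 0 of 10 members and 0 of 12977 genes passed a limma adjusted p of 0.05, and on polysomes 0 of 10 members and 0 of 12877 genes did (percent called 0 in both). At an unadjusted p under 0.05, 1943 genes (15% of those tested) were counted in input and 2743 (21.3%) on polysomes, and voom on the recovered reads also called 0. Without cKO input replicate 3, 326 genes were called in input, and without cKO polysome replicate 1, 160 were called on polysomes; without cKO input replicate 2 or cKO polysome replicate 2 the numbers were 47 and 231. A fit of all 12 libraries called 82 genes in input and 184 on polysomes. No member was among the called genes in any of these fits. The members' values leaned to lower levels in cKO. In input 9 of 10 log2 differences were below 0, with a median of -0.34 against -0.01 over all genes tested. On polysomes 7 of 10 were below 0, with a median of -0.27 against 0.02. In input the cKO replicates all lay below the cHet replicates for 6 members (Igf2, Meg3, Peg3, Grb10, Mest and Plagl1), a pattern that 1619 of the 12977 genes tested showed (29.3% of all genes tested did not overlap in either direction). On polysomes 5 members did so (H19, Igf2, Meg3, Mest and Plagl1), against 1737 of the 12877 genes tested, and Igf2r lay wholly above, as 2309 genes did (31.4% of all genes tested did not overlap in either direction).

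The paternally expressed genes Igf2 and Mest had lower values in cKO in both fractions. Igf2 in cKO input averaged 116 ± 17.1 FPKM against 144 ± 5.69 in cHet, a log2 difference of -0.31 (SE 0.13, limma adjusted p = 0.333). On polysomes Igf2 averaged 25.8 ± 4.23 against 37.3 ± 6.40 FPKM, a log2 difference of -0.53 (limma adjusted p = 0.180). Its nearest polysome replicates were 29.6 FPKM in cKO and 29.9 in cHet. Without cKO polysome replicate 1, which stands apart, the polysome difference of Igf2 was -0.39. Its input difference was -0.42 without cKO input replicate 3. Mest averaged 262 ± 23.9 against 336 ± 23.1 FPKM in input (-0.36, limma adjusted p = 0.240) and 368 ± 35.3 against 526 ± 10.8 FPKM on polysomes (-0.52, limma adjusted p = 0.139). The replicates of the genotypes did not overlap for either gene in either fraction, but neither difference passed the test.

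H19 lay outside that pattern in input, because cKO input replicate 3 at 3758 FPKM lay above the cHet libraries. Its log2 difference was -0.22 (95% interval -0.58 to 0.13, limma adjusted p = 0.502) in input and -0.23 (limma adjusted p = 0.390) on polysomes. Without cKO input replicate 3 its input difference was -0.37 (limma adjusted p = 0.0645). The log2 ratio of Igf2 to H19 differed between genotypes by -0.09 in input (exact permutation p = 0.3, where 3 against 3 cannot go below 0.1) and by -0.29 on polysomes (exact permutation p = 0.2). The input difference was -0.048 without cKO input replicate 3 and -0.16 without cKO input replicate 2, and the polysome difference was -0.19 without cKO polysome replicate 1.

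Peg3, Plagl1 and Meg3 had the lowest point estimates in cKO input. Peg3 measured 21.4, 26.0 and 9.81 FPKM in cKO input (log2 difference -0.92, SE 0.34, limma adjusted p = 0.276), and Plagl1 measured 21.5, 26.4 and 7.76 FPKM (-0.96, SE 0.42, limma adjusted p = 0.345). For both genes the lowest value was cKO input replicate 3, and without it the differences were -0.50 and -0.42 (limma adjusted p = 0.0512 and 0.0701). On cKO polysomes Peg3 measured 11.0, 10.5 and 9.78 FPKM and Plagl1 15.3, 14.8 and 11.5 FPKM, with log2 differences of -0.29 and -0.26 from cHet. Meg3 measured 1.22, 2.61 and 2.24 FPKM in cKO input and 0.630, 1.85 and 1.25 FPKM on cKO polysomes, each replicate lower than every cHet replicate of that fraction. Its log2 differences were -0.80 (SE 0.28, limma adjusted p = 0.264) and -1.14 (SE 0.35, limma adjusted p = 0.148). Its lowest polysome value came from replicate 1, and without it the difference was -0.75.

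Among the growth restrainers, Grb10 did not overlap in input, at 95.7, 112 and 98.0 FPKM in cKO against 122 to 136 FPKM in cHet (log2 difference -0.36, SE 0.11, limma adjusted p = 0.232), but overlapped on polysomes, where cKO measured 75.4, 57.2 and 49.8 FPKM (log2 difference 0.10). Cdkn1c overlapped in both fractions, with log2 differences of -0.12 in input and 0.27 on polysomes. The cKO values of Cdkn1c were 361, 367 and 426 FPKM in input and 461, 258 and 204 FPKM on polysomes. Without cKO polysome replicate 1 the polysome differences of Cdkn1c and Grb10 were -0.064 and -0.066, so their direction rested on that library. Igf2r differed by 0.064 in input and 0.45 on polysomes (limma adjusted p = 0.809 and 0.270), and its polysome difference was 0.18 without that library. Dlk1 measured 62.8, 72.8 and 90.7 FPKM in cKO input and 84.7, 70.0 and 58.1 FPKM on cKO polysomes. It overlapped with cHet in both fractions, with log2 differences of -0.29 in input and -0.36 on polysomes. Only cKO input replicate 3 and cKO polysome replicate 1, the libraries that stand apart, reached the cHet range. Without cKO input replicate 3 the input difference was -0.43, and without cKO polysome replicate 1 the polysome difference was -0.50.

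The ratio of Igf2 to Igf2r separated the genotypes in both fractions. On polysomes this had to be so, because Igf2 lay wholly below cHet in cKO and Igf2r wholly above. The ratio there restates those patterns, and its permutation p adds nothing to them. How often pairs outside the 3 ratios separate was not counted. The ratio of Igf2 to Igf2r was 6.81, 7.43 and 6.25 in cHet input against 4.67, 5.77 and 5.34 in cKO input. On polysomes it was 6.18, 6.33 and 5.004 against 1.67, 3.71 and 4.08. The mean log2 difference was -0.38 in input and -0.98 on polysomes, with an exact permutation p of 0.1 in each, the smallest possible with 3 against 3. Without cKO polysome replicate 1, which stands apart, the polysome difference was -0.58, and without cKO input replicate 3 the input difference was -0.39. Dlk1 to Meg3 also separated in input (25.7 to 27.2 in cHet, 27.9 to 51.5 in cKO), by 0.54 on the log2 scale (exact permutation p = 0.1). On polysomes Dlk1 to Meg3 overlapped, with a difference of 0.85 (exact permutation p = 0.3). Without cKO input replicate 3 and cKO polysome replicate 1 respectively, these differences were 0.51 and 0.29.

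**Figure D4:**
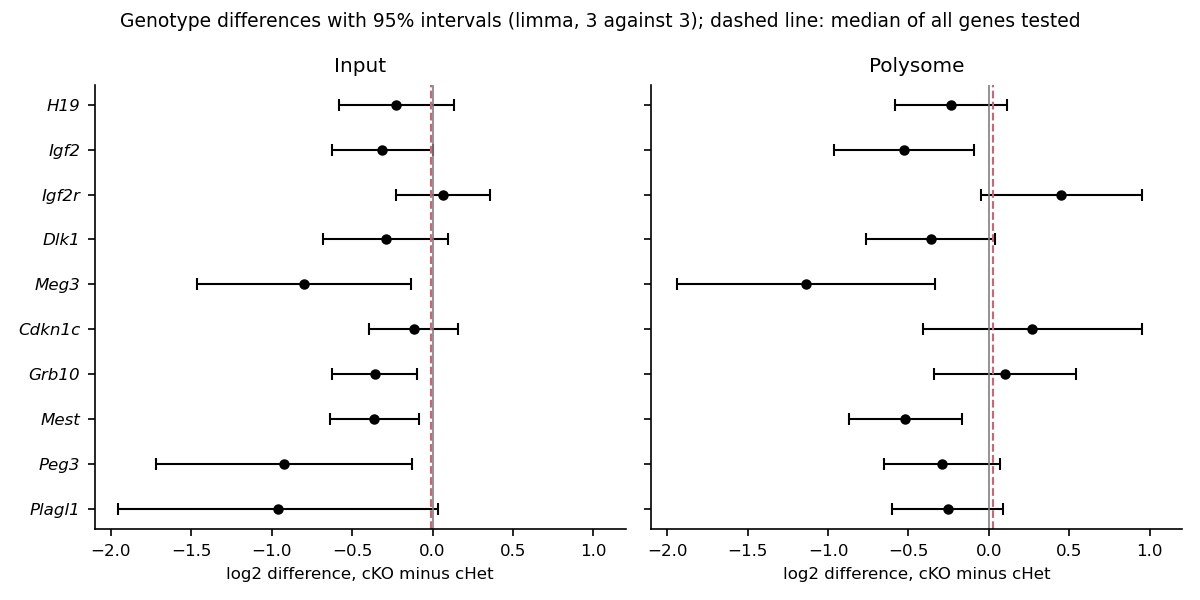
Log2 difference between cKO and cHet (horizontal axes) for the 10 members in input and polysome RNA; points are limma estimates over 3 against 3 libraries, bars 95% intervals and dashed lines the median of all genes tested. 9 of 10 points lie below 0 in input and 7 of 10 on polysomes.

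Summed levels of some cell type markers also separated the genotypes, although 0 markers of any list were called between genotypes by limma in either fraction. In input the sum of 8 macrophage markers ran from 41.2 to 46.1 FPKM in cHet and from 52.5 to 78.2 in cKO, and all 8 lay higher in every cKO library, as 2187 of the 12977 genes tested did. The sum of 8 epidermal markers ran from 269 to 271 against 316 to 351 FPKM. That of 5 nerve and glia markers ran from 18.1 to 20.3 against 21.4 to 29.4, and that of 12 limb mesenchyme markers from 825 to 1006 against 1151 to 1395. Single markers were less uniform: 6 of 8 epidermal, 4 of 5 nerve and glia and 10 of 12 mesenchyme log2 differences were above 0. Only 3, 1 and 6 of these markers lay higher in every cKO library, and 1 epidermal marker lay lower in every cKO library, as 1619 genes did. On polysomes macrophage (51.8 to 56.8 FPKM in cHet against 67.9 to 94.2 in cKO), epidermal (116 to 131 against 156 to 328) and nerve and glia sums (9.56 to 12.4 against 15.3 to 25.9) separated too, while the mesenchyme sums overlapped (1487 to 1684 against 1446 to 2087). The mesenchyme overlap rested on cKO polysome replicate 1, which stands apart, since the other cKO sums were 1869 and 2087. That library also gave the highest cKO macrophage, epidermal and nerve and glia sums, which separated without it as well. On polysomes log2 differences were above 0 for 8 of 8 macrophage, 7 of 8 epidermal and 5 of 5 nerve and glia markers. All 9 erythroid markers had log2 differences below 0 in both fractions, with medians of -0.49 in input and -0.28 on polysomes, but their sums overlapped (9311 to 23934 against 5791 to 14310 FPKM in input). The sums of cartilage, skeletal muscle and endothelial markers overlapped in both fractions. Their part in the members' differences was not tested. In bulk tissue, fewer cells of a type and less RNA per cell cannot be told apart.

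Genes of the IGF pathway had a median log2 difference between cHet polysomes and input of -0.58, against 0.02 over all genes tested. Of 22 listed genes 18 were tested, and in cHet 2 were higher and 9 lower on polysomes (limma, as above), where 27.3% of all genes tested were higher and 25.9% lower. The 11 called of 18 are thus near the 53.2% called over all genes, and the split by direction was not tested. Igf2bp1, a protein that binds the Igf2 messenger, differed by -0.99 (SE 0.13), from 18.7 ± 0.775 FPKM in input to 9.37 ± 0.145 on polysomes. Igfbp5, a secreted IGF binding protein, differed by -1.48 (SE 0.21), the receptor Igf1r by -1.08 (SE 0.18) and the receptor substrate Irs2 by -0.83 (SE 0.13). In cKO 1 was higher and 6 were lower, where 32.5% of all genes tested were called. Between genotypes 0 of 17 in input and 0 of 16 on polysomes were called. Igfbp7 had the smallest p in both, with log2 differences of -0.57 and -0.72 (limma adjusted p = 0.202 and 0.0917), and Igf1, the relative of Igf2, differed by -0.90 and -0.61.

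Other imprinted coding genes were called in both directions on polysomes. Of 45 listed genes 33 were tested, and in cHet 9 were higher and 7 lower, with a median of 0.10. These 16 of 33 are near the 53.2% called over all genes tested. Nnat, a small membrane proteolipid, went from 492 ± 18.5 FPKM in input to 1222 ± 24.4 on polysomes (log2 difference 1.31, SE 0.20), and Blcap, in whose intron Nnat lies, differed by 1.00 (SE 0.18). Trappc9 differed by -1.64 (SE 0.22) and Peg10, a gene derived from a retrotransposon, by -0.87 (SE 0.12). In cKO 8 were higher and 3 lower, against 32.5% of all genes called. Between genotypes 0 of 31 in input and 0 of 32 on polysomes were called. Phlda2, a maternally expressed growth restrainer of the placenta, was at 3.31 ± 0.299 FPKM in cHet input and 5.62 ± 0.908 in cKO input (log2 difference 0.74, limma adjusted p = 0.1504).

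Genes that maintain imprints include the DNA methyltransferases and Trim28, a cofactor of zinc finger proteins. In cHet 7 of 11 tested were lower on polysomes and 0 higher, with a median of -0.84, where 25.9% of all genes tested were lower and 27.3% higher. Trim28 differed by -1.52 (SE 0.23), Dnmt1 by -1.43 (SE 0.15), Uhrf1, which brings Dnmt1 to replicated DNA, by -1.31 (SE 0.16) and Dnmt3a by -0.88 (SE 0.15). In cKO 5 of 11 were lower and 0 higher, where 15.6% of all genes were lower, and between genotypes 0 of 11 were called in each fraction.

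Noncoding RNAs were called in both directions on polysomes. Of 4 other imprinted noncoding genes tested, 3 were higher on cHet polysomes (Peg13 at 0.86, Airn at 0.78 and Igf2os at 0.73) and 1 was lower: Rian, which lies beside Meg3 and hosts small nucleolar RNAs, at -1.84 (SE 0.23). Of 8 abundant noncoding RNAs tested, a list that also holds Rian, 1 was higher (Hottip, from the end of the HoxA cluster, at 0.74) and 2 were lower (Rian, and the nuclear RNA Malat1 at -1.33). In cKO 2 of the 4 were higher and 1 lower, and of the 8, 1 was higher and 3 were lower. Over all genes tested, 27.3% were higher and 25.9% lower in cHet, and 16.9% and 15.6% in cKO. The 1713 tested genes not annotated as protein-coding also leaned higher on cHet polysomes, with a median of 0.23 and 714 below 0. The value of H19, -3.47, was below that of each of these RNAs in cHet. Between genotypes none of the 4 or the 8 was called in either fraction by limma. Airn differed by -0.58 in input and -0.79 on polysomes (limma adjusted p = 0.196 and 0.119), and Peg13 by -0.46 and -0.80.

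Within groups some members varied together across the 12 libraries, after each group's mean was subtracted, and these correlations are given as descriptions since libraries share lysates. Peg3 and Plagl1 had the highest correlation of the 45 pairs (Pearson r = 0.92), which includes the shared low value in cKO input replicate 3. Cdkn1c and Grb10 followed at 0.83, both being high in cKO polysome replicate 1. No correlation was computed without the libraries that stand apart. H19 and Igf2, which share enhancers, had r = 0.78, and H19 and Plagl1 had -0.86. Over 7451 protein-coding genes with a mean of at least 5 FPKM, those most like H19 were Irx4 (r = 0.97), Ift27, Thtpa, Fitm1 and Znhit3, and those most like Igf2 were Abhd8 (r = 0.97), Akt1, Eloa, Wtip and Irak1.

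PLAGL1 is a transcription factor, and GGGGCCCC is a motif attributed to it. Whether PLAGL1 acts on Peg3 was not tested. The 250 bases before the RefSeq start of Peg3 are shown (GRCm38.p6, chr7:6730420-6730669, minus strand), with these letters in capitals.
Peg3: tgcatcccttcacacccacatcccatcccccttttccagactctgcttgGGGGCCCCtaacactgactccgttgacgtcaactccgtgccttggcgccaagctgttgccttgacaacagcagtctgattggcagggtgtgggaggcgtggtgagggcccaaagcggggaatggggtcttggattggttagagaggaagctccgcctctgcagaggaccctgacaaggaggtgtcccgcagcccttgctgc
Promoter windows of 300 bases (250 before to 50 after each start) were present for 8 of the 10 members, in 15 windows. The motif, which reads the same on both strands, was found in 1 of these 15, that of Peg3, and in 1.08% of 32851 windows. The letters TATAAA, searched on both strands, were found in 1 of the 15, at Meg3, and in 13.6% of all windows. A match describes these letters and no binding was measured.

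The letters GGACT, one form of the sequence in which N6-methyladenosine is commonly written, were counted in the reference transcripts because METTL14 acts there. H19-202 held 6, or 2.62 per kilobase, against a median of 1.05 per kilobase over 11866 coding genes. Grb10-201 held 7 (1.38 per kilobase), Igf2r-201 held 12 (1.35 per kilobase) and Meg3-209 held 16 (1.10 per kilobase). Cdkn1c-201, Peg3-201, Plagl1-202 and Dlk1-201 had 1.05, 1.04, 0.951 and 0.645 per kilobase, and Mest-202 held 1 (0.375 per kilobase). For Igf2 the density depended on the transcript. Igf2-205 held 2 (0.424 per kilobase), Igf2-204 held 4 (1.01 per kilobase) and Igf2-203 held 0. Methylation of these letters was not measured here.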

How the data were processed

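RNA of 12 libraries (3 per group) was analysed from 1 deposited table. Per the submitters' processing notes, HISAT2 2.0.5, featureCounts 1.5.0-p3 and the mm10 genome were used; per the labels' protocols, RNA was prepared with a Quick RNA Microprep kit and libraries with NEBNext Ultra II RNA. The annotation release, strandedness and any depletion of ribosomal RNA are not given in the sources used here. The deposited values are FPKM computed by the authors. Multiplied by gene length, 100% of them gave whole reads (tolerance 0.01), which supplied the depths and a test with voom.

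Genes with FPKM of at least 1 in 3 of the fitted libraries were tested with limma 3.58.1 in R 4.3.3 on log2(FPKM + 0.1) with a mean-variance trend, so differences of low genes are understated. Genotypes were compared within a fraction (6 libraries); polysome against input and the interaction used all 12. P-values were adjusted over all genes tested, with calls under 0.05. Gene ratios were tested by exact sign-flip permutation over 6 lysates. The fit was checked on simulated data. Named were all 10 members, Mettl14, up to 4 genes of each list with the smallest p, and the 5 genes most like H19 or Igf2. Genes overlapping members were also looked up. Those not described above were Copg2 and Gm44296, which overlap Mest, and Gm44732, which overlaps Cdkn1c. Copg2 was at 9.54 to 13.7 FPKM, and Gm44296 and Gm44732 had 0 to 2 reads per library. The members and lists were chosen with earlier results of these data known. Alternatives covered the pseudocount, filter, scaling, voom, blocks and leaving out libraries; leaving out libraries from the genotype differences of gene ratios was chosen after seeing the data.

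Input and polysome of the same genotype and number come from the same lysate, per the series design; their deviations correlated at 0.0525 to 0.249. Across genotypes a number is shared in name only (-0.281 to 0.165). Promoter and microRNA sequences are from RefSeq (GRCm38.p6) and transcripts from GENCODE M21. Intervals cover the spread between these samples.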

Additional observations from a re-analysis of the deposited data

How the results depend on the processing

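Of the members' calls between polysome and input in cHet, the number ran from 6 to 8 when single libraries were left out; H19, Igf2, Igf2r, Grb10, Mest and Peg3 were called in each of those fits and without the filter on low values (6 called). In cKO it ran from 5 to 7, and was 8 without both libraries that stand apart, which also raised the calls over all genes from 4424 to 8012. With the lysate as replicate block the counts were 8 in cHet and 7 in cKO. Between genotypes and for the interaction, 0 members were called under every alternative run, the replicate block included, while over all genes up to 326 were called between genotypes (42 on polysomes with the replicate block) and up to 7 for the interaction. Without the filter, 4 members were called in cKO. Directions turned only for differences that were not called: leaving out single libraries gave -0.024 to 0.12 for Igf2r in input, -0.064 to 0.52 for Cdkn1c and -0.066 to 0.23 for Grb10 on polysomes (cKO against cHet), -0.11 to 0.038 for Dlk1 in cHet, -0.23 to 0.053 for Dlk1 and -0.79 to 0.088 for Plagl1 in cKO (polysome against input), and, for the interaction, -0.096 to 0.13 for H19, -0.21 to 0.070 for Dlk1 and -0.66 to 0.049 for Meg3. The interaction of H19 was 0.089 under protein-coding scaling, 0.036 with voom and 0.17 without both libraries; that of Dlk1 was 0.027 under protein-coding scaling, and those of Igf2 and Meg3 were 0.024 and 0.15 without both libraries. The cause was not tested. The ratio of Igf2 to H19 ran from 1.36 to 1.46 (log2, polysome minus input), that of Igf2 to Igf2r from -0.61 to -0.34 and that of Dlk1 to Meg3 from 0.35 to 0.64 with 1 lysate left out, where 5 pairs cannot give an exact permutation p under 0.0625. Without the pairing by lysate (no replicate block), Igf2 to Igf2r stayed at -0.53 with an adjusted exact permutation p of 0.123. Depth limits Meg3 most, at 257 reads in its lowest library.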
